A study of Homo sapiens with 24 samples.

Results

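The set described here holds 10 genes of mitochondrial fatty acid oxidation, CPT1A, CPT2, ACADM, ACADVL, ACADS, HADHA, HADHB, ETFDH, DECR1 and PDK4, of the 60617 genes in the deposited count table. They were chosen by name, with earlier results of these data known. Each row was found through the Ensembl identifier that the GENCODE annotation of GRCh38 pairs with the symbol. All 10 rows were present, and 9 passed the filter on low counts and were tested. PDK4 did not pass. RNASeq was performed on MDA686TU, a cancer line established from a squamous carcinoma of the head and neck, to find genes modulated by resveratrol, a stilbene polyphenol of grapes, by EGCG, the main catechin of green tea, and by both. The 4 groups of 6 libraries were untreated cells, cells with 40 µM EGCG, cells with 15 µM resveratrol, and cells with 40 µM EGCG plus 15 µM resveratrol (the combination), and treatment lasted 24 h. Every group grew in the same medium with 10% FBS. The solvent was DMSO for resveratrol and water for EGCG. Whether the untreated cells received DMSO is not given in the sources used here, so the agent and its solvent cannot be told apart in any comparison of cells with resveratrol and cells without it, those with EGCG included. No source says that the 6 replicates of a group were grown as separate cultures, so the p-values measure the spread between these libraries, which may in part be technical.

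Mitochondrial beta-oxidation shortens activated fatty acids step by step and yields acetyl-CoA, NADH and reduced flavoprotein. CPT1A on the outer mitochondrial membrane couples long acyl chains to carnitine and is the step that malonyl-CoA inhibits, and CPT2 on the inner membrane returns them to CoA. ACADVL, ACADM and ACADS are the acyl-CoA dehydrogenases for very long, medium and short chains, HADHA and HADHB form the trifunctional protein that carries out the later steps on long chains, ETFDH passes the electrons from the dehydrogenases to ubiquinone, and DECR1 reduces double bonds of unsaturated chains. PDK4 is not an enzyme of the spiral: it inhibits pyruvate dehydrogenase and is known as a gene that cells induce when they burn fat in place of glucose.

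The libraries held 7034872 to 11735574 counts. The share of mitochondrially encoded transcripts was 0.249% to 0.326% for replicates numbered 1 to 3 and 0.448% to 0.775% for those numbered 4 to 6, over all groups. No label names a batch, and changes are given separately for these 2 sets of replicates for some members and comparisons only. The 9 squamous epithelial markers checked, such as KRT5 and KRT14, were present in all groups, with a summed normalised read count of 162062 to 172295 in the control, 156186 to 175931 with EGCG, 135117 to 144002 for resveratrol and 134369.6 to 146363 for both agents. Of 12 markers of immune, endothelial, fibroblast and muscle cells, MYH7 was at 0 in all libraries, and the 11 markers other than COL1A1 summed to between 32.7 and 61.4 over all groups. The full list, mostly COL1A1, summed to 1135 to 1365 in the control, 912 to 1129.6 with EGCG, 1330.0 to 1575 for resveratrol and 1542 to 1772 for both agents. The part of these shifts in the results that follow was not tested.

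Resveratrol, alone or in the combination, upregulated most of the measured fatty acid oxidation genes by small factors, and no member was called with EGCG alone. CPT2 and ACADVL changed most, by 1.46-fold and 1.40-fold with resveratrol and by 1.43-fold and 1.42-fold with the combination. DECR1 and ACADM followed, by 0.38 and 0.26 on the log2 scale with resveratrol, while CPT1A, HADHA and HADHB moved by 1.05-fold to 1.09-fold. PDK4 was close to absent in all groups. In bulk RNA such as this, fewer cells expressing a gene and less of its RNA per cell cannot be told apart. The summed normalised read count of the 10 genes was 8566 ± 136 (SD, n = 6) in the control, 8558 ± 154 with EGCG, 9931 ± 149.9 for resveratrol and 9872 ± 183 for both agents.

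A gene was called when edgeR's quasi-likelihood test gave a Benjamini-Hochberg adjusted p under 0.1 over all tested genes and an unadjusted p under 0.05. With resveratrol, 8 of the 9 tested members were called higher and 0 lower, where 28.9% of the 15476 tested genes were called higher and 28.0% lower. With the combination, 7 of 9 were called higher and 0 lower, where 29.9% of all tested genes were called higher and 29.9% lower. Against EGCG in place of the untreated control, the combination again called 7 higher, with 28.7% of all tested genes called higher. EGCG alone called 0 members in edgeR, with 0 at an unadjusted p under 0.05 and 0 by DESeq2, and called 1.76% of all tested genes in either direction. These comparisons share libraries: each treatment was set against the same 6 control libraries. Since the members were chosen with earlier results of these data known, the shares over all tested genes are set beside them as a description only. The median log2 fold change of the 9 tested members was 0.06 for EGCG, 0.22 for resveratrol and 0.18 for both agents, beside 0.00 for all tested genes in each.

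The 6 treated libraries all lay above the 6 control libraries, on the log2 CPM scale of the tested genes, for 5 members with resveratrol (CPT1A, CPT2, ACADM, ACADVL and, narrowly, HADHB) and for 5 with the combination (CPT2, ACADM, ACADVL, HADHA and HADHB). Over all tested genes this held for 15.3% with resveratrol and 15.6% with the combination. Between the combination and EGCG the libraries of 4 members did not overlap in this direction (CPT2, ACADVL, HADHA and HADHB), beside 13.5% of all tested genes. For EGCG against the control it was 0 members, beside 1.63% of tested genes in either direction. By the two-sided exact permutation test on log2 CPM, those members without overlap had the smallest p that 6 libraries against 6 can give, 0.00216 (0.00696 adjusted over the 45 tests of members). Absence of overlap fixes this p in advance, so it is no further evidence. At the same thresholds, this test and edgeR's calls differed for ETFDH and ACADS with resveratrol and for CPT1A between the combination and resveratrol, as given below. With library size alone as the scaling, the median log2 fold change of all tested genes was 0.09 with resveratrol and 0.08 with the combination. Called genes were then higher in 6147 of 9004 cases with resveratrol, in place of 4466 of 8807, in 6041 of 9352 with the combination, in place of 4633 of 9258, and in 5737 of 8987 between the combination and EGCG, in place of 4440 of 8950. For the interaction they were higher in 28 of 42 in place of 32 of 41. The direction of the called members was the same under that scaling.

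**Figure D1:**
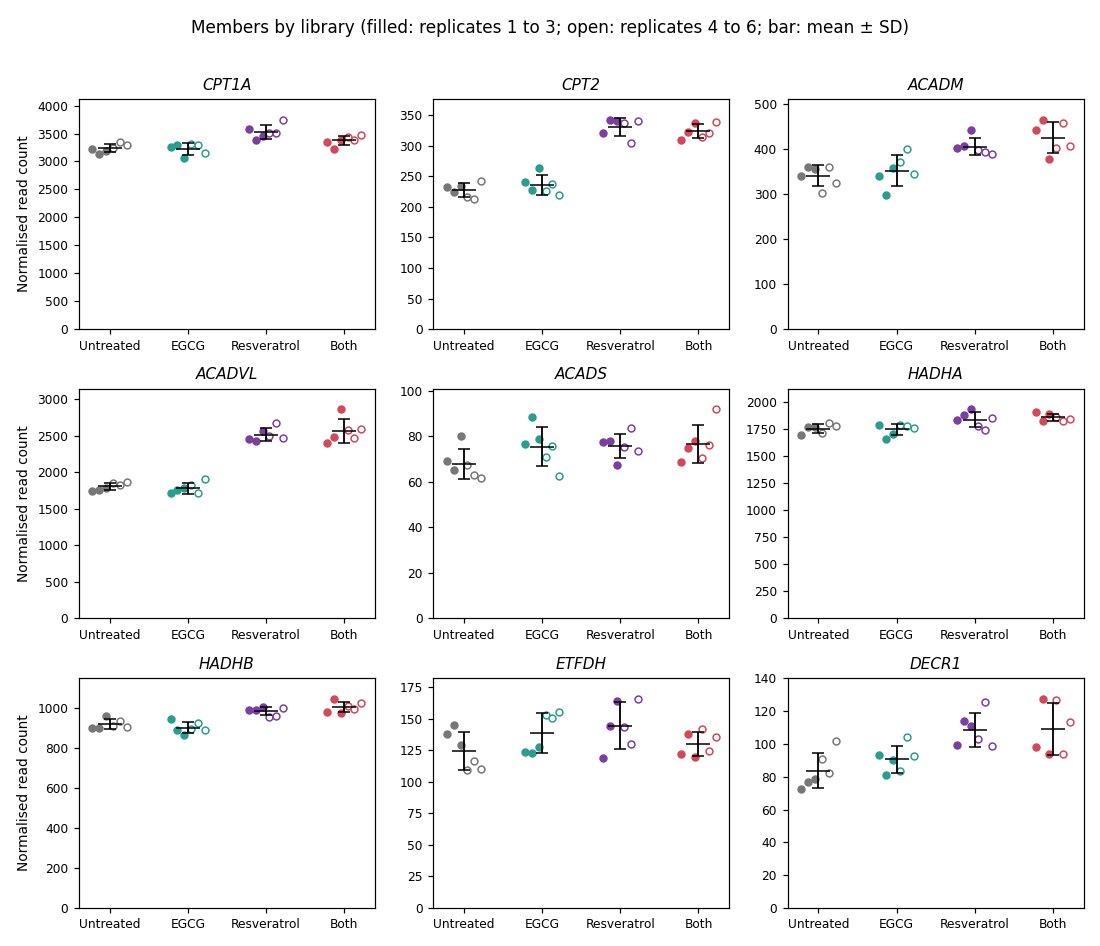
Normalised read count (y axis, from 0) of the 9 tested members in each of the 24 libraries by group (x axis), with replicates 1 to 3 as filled and 4 to 6 as open points and the mean ± SD of 6 libraries as a bar. CPT2 and ACADVL stand higher in all resveratrol and combination libraries than in all untreated and EGCG libraries, and ACADS, ETFDH and DECR1 overlap between groups.

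Compared per length, as FPKM, the members covered a wide range of levels. In the untreated control CPT1A was highest at 56.5 ± 1.35 FPKM (SD, n = 6), followed by HADHA at 46.5 ± 1.13, ACADVL at 43.0 (41.5 to 44.3) and HADHB at 24.6 ± 0.666. ACADM stood at 8.15 ± 0.557 FPKM. The lowest were ETFDH at 3.18 ± 0.384, ACADS at 2.98 ± 0.296, CPT2 at 2.58 ± 0.132 and DECR1 at 1.90 ± 0.242 FPKM. Among neighbours in this order, only the ranges of ETFDH and ACADS and those of ACADS and CPT2 overlapped between libraries in the control. Per length, the carnitine shuttle thus combined the most and nearly the least abundant of the tested transcripts. This order rests on the gene lengths behind the deposited FPKM. By mean normalised read count in the control, CPT2 (227) stood above ETFDH (125) and ACADS (67.7). The order per length changed with resveratrol. ACADVL passed HADHA and reached 59.8 ± 2.14 FPKM, within the range of CPT1A (61.6 ± 2.15), and with the combination it stood at 60.9 ± 3.85 beside 58.9 ± 1.53 for CPT1A, with overlapping ranges. CPT2 moved from eighth to sixth place, at 3.76 ± 0.168 FPKM with resveratrol and 3.68 ± 0.133 with the combination, where its range overlapped that of its next lower neighbour, ETFDH with resveratrol and ACADS with the combination. EGCG left the order of the means as in the control.

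**Figure D2:**
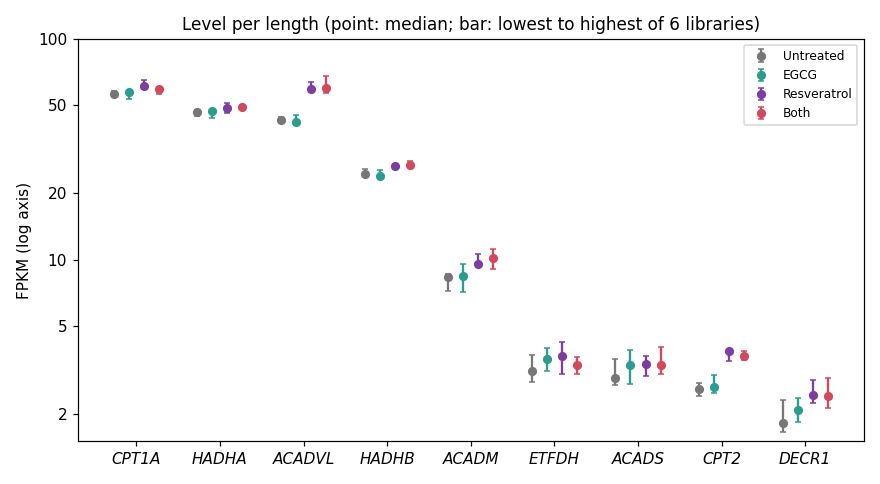
Level per length (FPKM, log axis) of the 9 tested members in the 4 groups, as the median with a bar from the lowest to the highest of 6 libraries. ACADVL lies below HADHA in the control (41.5 to 44.3 beside 44.9 to 47.8) and above it with resveratrol (57.7 to 63.5 beside 46.0 to 51.1).

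Both parts of the carnitine shuttle rose with resveratrol, CPT2 far more than CPT1A. CPT2 (ENSG00000157184, GRCh38 chromosome 1, 53196792 to 53214197, plus strand), the inner membrane carnitine palmitoyltransferase, had normalised read counts from 212 to 243 in the untreated control (median 229), from 219 to 263 with EGCG (median 233), from 305 to 342 with resveratrol (median 339) and from 310.1 to 338 with the combination (median 322). All libraries with resveratrol lay above all libraries without it, and the range with EGCG overlapped that of the control. The means were 227 ± 11.6 for untreated cells, 236 ± 15.7 for EGCG, 331 ± 14.8 for resveratrol and 324 ± 11.7 for both agents (SD, n = 6). On the log2 scale the change was 0.55 (SE 0.0497, edgeR adjusted p = 1.19e-11) with resveratrol, 0.52 (0.0505, edgeR adjusted p = 6.24e-11) with the combination and 0.06 (0.0526, edgeR adjusted p = 0.777) with EGCG. Replicates 1 to 3 and 4 to 6 gave 0.55 and 0.55 for resveratrol, and 0.50 and 0.53 for both agents.

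CPT1A (ENSG00000110090, GRCh38 chromosome 11, 68754620 to 68844410, minus strand), the liver-type isoform of the outer membrane enzyme, had the most counts of the set, from 3134 to 3345 in the untreated control (median 3238), from 3054 to 3305 with EGCG (median 3285), from 3382 to 3742 with resveratrol (median 3508) and from 3219.6 to 3472 with the combination (median 3387). Each resveratrol library lay above each control library, but the combination overlapped the control. Its means were 3239 ± 77.2 for untreated cells, 3229.9 ± 105 for EGCG, 3529.5 ± 123 for resveratrol and 3377 ± 87.7 for both agents (SD, n = 6). With resveratrol the log2 fold change was 0.13 (95% interval 0.07 to 0.19, edgeR adjusted p = 3.21e-04), and with the combination it was 0.06 (0.00 to 0.12, edgeR adjusted p = 0.0622). The combination's call was lost without untreated replicate 1, 2 or 3 or combination replicate 4, 5 or 6, with log2 fold changes of 0.05 to 0.09 over all libraries left out in turn. It was also lost in replicates 1 to 3 (0.07) and 4 to 6 (0.06) taken separately. EGCG gave 0.00 (-0.06 to 0.06).

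As a description of the same values within libraries, the log2 ratio of CPT2 to CPT1A ran from -3.97 to -3.75 in the control, from -3.86 to -3.53 with EGCG, from -3.51 to -3.30 for resveratrol and from -3.44 to -3.31 for both agents, so that all libraries with resveratrol lay above all without. Its mean differed from the control by 0.42 with resveratrol, 0.45 with the combination and 0.06 with EGCG. The ratios of members were chosen after the values were seen and are given without a test.

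The promoter of CPT2 is shown as the member with the largest change, beside those of PDK4, the member close to absent, ACADS, which was not called, and HADHA, which shares its upstream stretch with HADHB. The RefSeq promoter table (GRCh38.p14) covers 250 bases before to 50 bases after each start. Of the 10 members 8 matched, all but ETFDH and DECR1, with 9 windows in all since ACADVL had 2. The sequences are the longest part of each window free of annotated exons on either strand, 5′ to 3′ on the strand of the gene. For PDK4 and HADHA this leaves out the bases furthest upstream. Capitals mark GGGCGG or its complement CCGCCC, the GC box known as a site for SP1.
CPT2, chr1:53196574-53196791, plus strand: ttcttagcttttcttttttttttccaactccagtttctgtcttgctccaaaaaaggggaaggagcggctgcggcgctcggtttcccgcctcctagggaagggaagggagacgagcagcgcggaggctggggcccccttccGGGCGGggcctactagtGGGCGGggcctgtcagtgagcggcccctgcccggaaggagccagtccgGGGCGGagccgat
PDK4, chr7:95596517-95596669, minus strand: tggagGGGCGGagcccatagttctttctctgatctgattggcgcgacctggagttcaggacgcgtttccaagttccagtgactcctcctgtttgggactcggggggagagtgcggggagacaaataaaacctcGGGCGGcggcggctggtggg
ACADS, chr12:120725576-120725773, plus strand: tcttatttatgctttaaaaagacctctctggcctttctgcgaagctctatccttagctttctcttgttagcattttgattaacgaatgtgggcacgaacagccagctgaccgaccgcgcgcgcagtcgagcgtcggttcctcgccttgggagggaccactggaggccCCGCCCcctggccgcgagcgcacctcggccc
HADHA, chr2:26244673-26244747, minus strand: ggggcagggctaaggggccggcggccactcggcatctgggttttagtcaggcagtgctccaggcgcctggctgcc
GGGCGG on either strand was found in 7 of the 9 full windows, beside 45.0% of all 35116 promoters in the table. The full windows of CPT2 and ACADM held 4 copies each, those of HADHB, PDK4 and ACADS and 1 window of ACADVL held 2, and that of HADHA held 1. The windows of HADHA and HADHB overlap, and the match of HADHA is the same bases as 1 of those of HADHB. AGGTCA, the core to which PPAR and other nuclear receptors bind, was in 0 of 9 windows (13.8% of all promoters), as were a pair of AGGTCA 1 base apart (0.0228%), AAGGTCA (3.92%), the forkhead motif GTAAACA (3.42%), the ATF4 motif TTGCATCA (0.866%) and the NRF1 motif GCGCATGCG (1.92%). GCGTG, the core of the aryl hydrocarbon receptor's element, was in the windows of ACADM, CPT1A, ACADS and ACADVL (36.5% of all promoters). TGACNNNGC, the antioxidant element (13.3%), and ACGTG, the hypoxia element (21.4%), were each found for ACADVL alone, and CCAAT for PDK4 alone (34.6%). All motifs were searched on both strands, and AAGGTCA and the pair contain AGGTCA. The match of HADHA lies outside the stretch printed. Absence from these windows says only that the letters are not there.

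Of the acyl-CoA dehydrogenases, the very long chain enzyme ACADVL changed most, the medium chain enzyme ACADM rose less, and the short chain enzyme ACADS was not called. ACADVL (ENSG00000072778, GRCh38 chromosome 17, 7217125 to 7225266, plus strand) had normalised read counts from 1745 to 1865 in the untreated control (median 1810.1), from 1711 to 1910.4 with EGCG (median 1772), from 2426 to 2669.9 with resveratrol (median 2487) and from 2398 to 2860.4 with the combination (median 2531). The lowest library with resveratrol exceeded the highest library without it. Combination replicate 3 was the highest of its group. The means were 1807 ± 50.5 for untreated cells, 1784 ± 74.6 for EGCG, 2515 ± 90.2 for resveratrol and 2563 ± 162 for both agents (SD, n = 6). On the log2 scale ACADVL rose by 0.48 (SE 0.0366, edgeR adjusted p = 1.49e-13) with resveratrol and by 0.51 (SE 0.0367, edgeR adjusted p = 2.35e-14) with the combination, against -0.02 (95% interval -0.09 to 0.06) with EGCG.

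ACADM (ENSG00000117054, GRCh38 chromosome 1, 75724431 to 75787575, plus strand), whose deficiency is the most common inborn error of fatty acid oxidation, ran from 302 to 360.2 in the untreated control (median 348), from 298 to 399.7 with EGCG (median 351), from 389 to 441 with resveratrol (median 399.9) and from 377 to 464 with the combination (median 424). All resveratrol and combination libraries lay above all control libraries, while EGCG replicate 5 reached into their range. The means were 340.2 ± 23.2 for untreated cells, 352 ± 34.0 for EGCG, 405 ± 18.8 for resveratrol and 425 ± 34.8 for both agents (SD, n = 6). It rose by 0.26 on the log2 scale with resveratrol (standard error 0.0582, edgeR adjusted p = 3.37e-04) and by 0.32 with the combination (0.0586, edgeR adjusted p = 1.64e-05), and was 0.06 with EGCG (95% interval -0.07 to 0.18).

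ACADS (ENSG00000122971, GRCh38 chromosome 12, 120725774 to 120740008, plus strand), which acts on butyryl-CoA, had few counts, from 61.7 to 80.3 in the untreated control (median 66.2), from 62.3 to 88.3 with EGCG (median 76.1), from 67.2 to 83.6 with resveratrol (median 76.3) and from 68.8 to 91.7 with the combination (median 75.4). All groups overlapped, and untreated replicate 3 was the highest of the control. Its means were 67.7 ± 6.73 for untreated cells, 75.4 ± 8.62 for EGCG, 75.7 ± 5.43 for resveratrol and 76.6 ± 8.18 for both agents (SD, n = 6). The log2 fold change was 0.16 (95% interval -0.03 to 0.35) with EGCG, 0.16 (-0.02 to 0.34, edgeR adjusted p = 0.157) with resveratrol and 0.18 (-0.01 to 0.37, edgeR adjusted p = 0.105) with the combination. These intervals hold 0 as well as rises near those of ACADM. Without untreated replicate 3 ACADS passed the test with resveratrol (0.22, edgeR adjusted p = 0.0689) and with the combination (0.24, 0.0435), and with library size alone as the scaling it did so too (0.25 and 0.26). The combination was also called without EGCG replicate 1, 2, 4 or 6 or combination replicate 1 or 4, with values of 0.12 to 0.24 over all libraries left out. It was called in replicates 4 to 6 alone as well (0.32, beside 0.06 in replicates 1 to 3). With resveratrol ACADS changed by 0.06 in replicates 1 to 3 and 0.27 in replicates 4 to 6.

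Within libraries, the log2 ratio of ACADVL to ACADS ran from 4.45 to 4.87 in the control, 4.29 to 4.89 with EGCG, 4.93 to 5.21 for resveratrol and 4.79 to 5.16 for both agents. Its mean differed from the control by 0.32 with resveratrol and 0.33 with the combination. That of ACADVL to ACADM differed by 0.23 and 0.18.

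**Figure D3:**
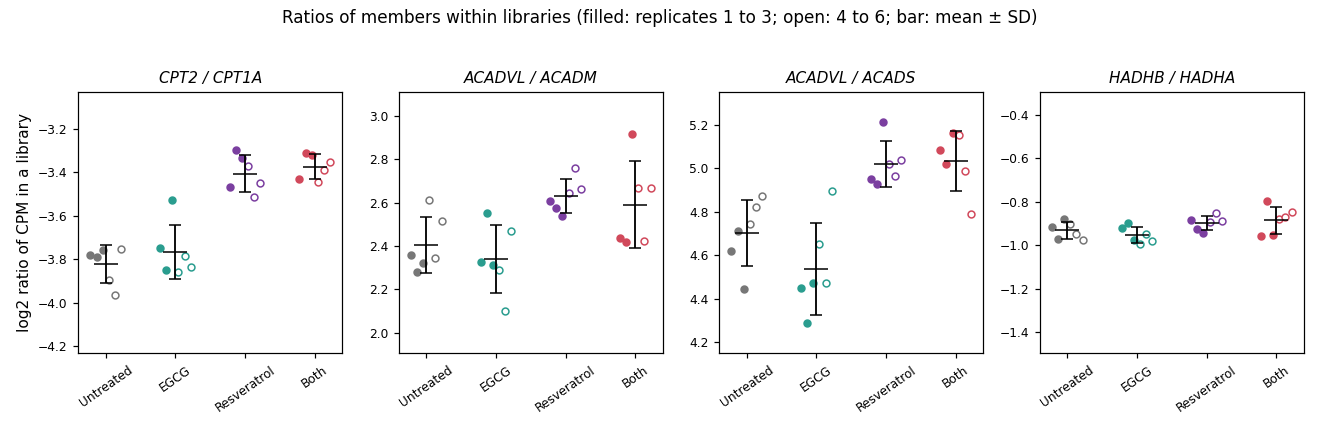
log2 ratio of the CPM of pairs of members (y axis, spanning the same range in each panel) in each of the 24 libraries by group, with the mean ± SD of 6 libraries as a bar. The CPT2 to CPT1A ratio separates libraries with resveratrol from those without, and HADHB to HADHA stays between -0.99 and -0.80 in all groups.

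The genes of the trifunctional protein rose little and together. HADHA (ENSG00000084754, GRCh38 chromosome 2, 26190635 to 26244672, minus strand) encodes the alpha subunit, with the hydratase and the long chain 3-hydroxyacyl-CoA dehydrogenase, and its normalised read count ran from 1698 to 1808 in the untreated control (median 1769), from 1663 to 1791 with EGCG (median 1772), from 1740.0 to 1933 with resveratrol (median 1846) and from 1821 to 1904 with the combination (median 1854). Combination libraries all lay above the control and the resveratrol libraries overlapped it. The means were 1756 ± 42.7 for untreated cells, 1749 ± 53.4 for EGCG, 1837 ± 70.7 for resveratrol and 1859 ± 34.5 for both agents (SD, n = 6), and the log2 fold change was 0.07 (95% interval 0.01 to 0.13, edgeR adjusted p = 0.0496) with resveratrol and 0.09 (0.02 to 0.15, edgeR adjusted p = 0.0157) with the combination. The call with resveratrol was lost without untreated replicate 1 or 4 or resveratrol replicate 2 or 3 (0.05 to 0.10 over all libraries left out). In replicates 4 to 6 alone HADHA was not called with resveratrol (0.02, beside 0.12 in replicates 1 to 3) or with the combination (0.06, beside 0.11).

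HADHB (ENSG00000138029, GRCh38 chromosome 2, 26243170 to 26290465, plus strand) encodes the beta subunit, the thiolase, and had counts from 898 to 962 in the untreated control (median 909), from 864 to 946 with EGCG (median 895), from 955 to 1005 with resveratrol (median 992) and from 978 to 1047 with the combination (median 1005). On this scale resveratrol overlapped the control by untreated replicate 3. It did not on the log2 CPM scale of the tested genes. With CPM over all counts it narrowly did, at 110.55 in resveratrol replicate 4 beside 110.57 in untreated replicate 3. The combination stood above the control on each of these scales. Its means were 919.6 ± 24.8 for untreated cells, 902 ± 28.6 for EGCG, 985 ± 20.8 for resveratrol and 1006 ± 27.0 for both agents (SD, n = 6). The log2 fold change was 0.10 (0.04 to 0.17, edgeR adjusted p = 0.00582) with resveratrol, and 0.08 without a call in replicates 4 to 6 alone. With the combination it was 0.13 (0.07 to 0.20, edgeR adjusted p = 4.77e-04). EGCG gave 0.00 for HADHA and -0.02 for HADHB, neither called. The log2 ratio of HADHB to HADHA differed from the control by 0.03 with resveratrol and 0.05 with the combination.

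ETFDH (ENSG00000171503, GRCh38 chromosome 4, 158671968 to 158710742, plus strand) was called with resveratrol and not with EGCG or the combination. It encodes the ubiquinone oxidoreductase that receives the electrons of the acyl-CoA dehydrogenases through the electron transfer flavoprotein. Its normalised read count ran from 109 to 145 in the untreated control (median 123), from 123 to 155 with EGCG (median 139), from 118 to 166 with resveratrol (median 144) and from 119 to 142 with the combination (median 130.1), and all groups overlapped. The means were 125 ± 15.0 for untreated cells, 139 ± 15.7 for EGCG, 144 ± 18.6 for resveratrol and 130.2 ± 9.51 for both agents (SD, n = 6). With resveratrol the log2 fold change was 0.22 (95% interval 0.04 to 0.39, edgeR adjusted p = 0.0353), a call lost without untreated replicate 4 or 6 or resveratrol replicate 3 or 6 (0.17 to 0.27 over all libraries left out). With the combination it was 0.06 (-0.12 to 0.25) and with EGCG 0.15 (-0.03 to 0.33), neither called. The exact permutation test of resveratrol against the control gave p = 0.0649 for ETFDH, 0.117 adjusted over the 45 tests of members. In replicates 1 to 3 the changes were -0.13 for EGCG, 0.07 for resveratrol and -0.12 for both agents, and in replicates 4 to 6 they were 0.45, 0.39 and 0.26. Untreated replicates 1 to 3 held 138, 145 and 129 normalised counts and untreated replicates 4 to 6 held 109, 116 and 110.2. EGCG replicates 1 to 3 held 124, 123 and 127 and replicates 4 to 6 held 153, 150.4 and 155. EGCG replicates 4 to 6 thus lay above all control libraries and EGCG replicates 1 to 3 did not. In replicates 4 to 6 alone the EGCG value (edgeR adjusted p = 0.0421) and the combination value (0.0520) were called. The difference between the sets was not called in an edgeR fit over all genes (0.58 for EGCG, 95% interval 0.27 to 0.89, unadjusted p = 5.86e-04, adjusted p = 1.00), where 0 of 15476 genes passed and 503 had an unadjusted p under 0.05. This model was chosen after the values were seen.

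DECR1 (ENSG00000104325, GRCh38 chromosome 8, 90001405 to 90053633, plus strand), the dienoyl-CoA reductase needed for polyunsaturated chains, had counts from 72.8 to 102 in the untreated control (median 80.5), from 80.8 to 104 with EGCG (median 91.6), from 98.8 to 126 with resveratrol (median 107) and from 93.8 to 128 with the combination (median 106). Of the control libraries, replicate 6 alone reached into the ranges of resveratrol and the combination, and EGCG overlapped all other groups. Its means were 83.8 ± 10.7 for untreated cells, 90.8 ± 8.24 for EGCG, 109 ± 10.5 for resveratrol and 109 ± 15.8 for both agents (SD, n = 6). It rose by 0.38 on the log2 scale with resveratrol (standard error 0.0950, edgeR adjusted p = 9.75e-04) and by 0.38 with the combination (0.0967, edgeR adjusted p = 0.00109). In replicates 4 to 6 alone the change with resveratrol was 0.25 and was not called, beside 0.52 in replicates 1 to 3, and with the combination the values were 0.49 and 0.28, both called. EGCG gave 0.13 (95% interval -0.07 to 0.33).

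PDK4 (ENSG00000004799, GRCh38 chromosome 7, 95583499 to 95596516, minus strand) was not detectable at this depth. It had 0 counts in all control and EGCG libraries, 1 count in all resveratrol libraries together and 2 in all combination libraries together. These are at or under the 3 counts that a total of 0 still allows, so no fold change is given.

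**Figure D4:**
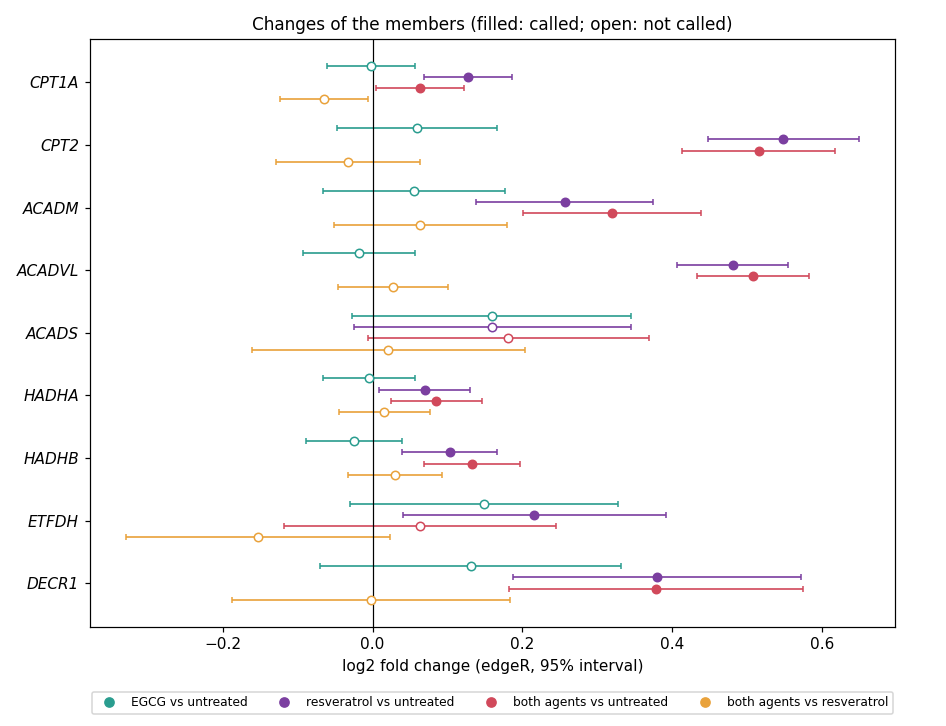
log2 fold change (x axis) with 95% interval from edgeR for the 9 tested members in 4 comparisons, filled where called. CPT2 and ACADVL lie near 0.48 to 0.55 with resveratrol and with the combination, EGCG has no filled point, and the combination does not differ by a call from resveratrol for any of the 9.

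Adding EGCG to resveratrol called no member. Between the combination and resveratrol, 0 of 9 were called by edgeR and 0 by DESeq2, with 1 at an unadjusted p under 0.05, where 7.86% of all tested genes were called in either direction. That member was CPT1A, at -0.06 on the log2 scale (95% interval -0.12 to -0.01, edgeR adjusted p = 0.220). By the exact permutation test CPT1A had p = 0.0260 in this comparison, 0.0584 adjusted over the 45 tests of members alone. For CPT2 the difference was -0.03 (-0.13 to 0.06), for ACADVL 0.03 (-0.05 to 0.10) and for ACADM 0.06 (-0.05 to 0.18). The widest intervals were those of the genes with few counts, ETFDH (-0.15, -0.33 to 0.02), DECR1 (0.00, -0.19 to 0.18) and ACADS (0.02, -0.16 to 0.20). The libraries of 0 members were without overlap in this comparison, beside 3.19% of all tested genes.

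Departure of both agents together from the added log2 changes of each was tested by an interaction term. It called 0 of 9 members in edgeR and 0 in DESeq2, beside 0.265% of all tested genes, and 1 member had an unadjusted p under 0.05, ETFDH at -0.30 (95% interval -0.55 to -0.05, edgeR adjusted p = 0.533). Adding resveratrol to EGCG changed CPT2 by 0.46 (0.35 to 0.56), ACADVL by 0.53 (0.45 to 0.60), ACADM by 0.26, DECR1 by 0.25, HADHB by 0.16, HADHA by 0.09 and CPT1A by 0.07, all called. ACADS (0.02) and ETFDH (-0.09) were not. In this comparison CPT1A lost its call without EGCG replicate 3 or combination replicate 4 or 6 (0.05 to 0.09 over all libraries left out). It also lost it in replicates 1 to 3 alone (0.05) and at an adjusted p under 0.05. HADHA lost its call in replicates 4 to 6 alone (0.05). DECR1 lost its call without combination replicate 2 (0.20) and in either set of replicates alone (0.26 and 0.23).

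Several members share genomic space with other genes, and the strand setting of the counting is not given in the sources used here, so reads of such overlaps may be assigned to either. ACADM overlaps RABGGTB on its own strand, which had 568 normalised counts in the control and fell by 0.42 with resveratrol and 0.55 with the combination on the log2 scale, while ACADM rose. ACADM also overlaps the pseudogene DLSTP1 on the other strand, at 37.4 normalised counts in the control. DLSTP1 was 0.11 with resveratrol, not called, and rose by 0.29 with the combination (edgeR adjusted p = 0.0637). ACADVL overlaps DLG4 on the other strand, which rose from 10.1 to 22.6 normalised counts with the combination, beside 1807 for ACADVL in the control. CPT2 overlaps CZIB (0.15 and 0.04, not called), ETFDH overlaps PPID, which fell by 0.22 and 0.31, and DECR1 overlaps NBN (-0.11, not called, and -0.30, called), each on the other strand. HADHA and HADHB overlap each other on opposite strands. The pseudogenes HADHAP1 and HADHAP2 had few counts, 15.2 for the first in the control, and were not called with resveratrol or the combination.

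Other genes of the pathway are given as log2 fold changes against the control, and where a pair of values is given the first is resveratrol and the second the combination. The counts of each list stand beside 28.9% of all tested genes called higher and 28.0% lower with resveratrol, and 29.9% higher and 29.9% lower with the combination. Among genes of fatty acid activation and the shuttle, CPT1C and ACSL1 rose most. Of 10 listed genes 6 were tested, and 3 rose and 1 fell with resveratrol and with the combination (median log2 fold change 0.20 and 0.25). CPT1C, the brain-type relative of CPT1A with little transferase activity, rose by 0.79 and 0.82 from a mean of 35.1 ± 4.49 normalised counts. ACSL1, which activates long chain fatty acids, rose by 0.79 and 0.67, ACSL3 by 0.36 and 0.36, while ACSL4, which prefers arachidonic acid, fell by 0.13 and 0.13. The carnitine carrier SLC25A20, which links CPT1A and CPT2 in the pathway, had values of 0.05 and 0.13 and was not called. CPT1B, the muscle isoform, had 89 counts over all 24 libraries and was not tested. The fall of ACSL4 was not called with library size alone as the scaling (-0.05 and -0.05).

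A list of other beta-oxidation enzymes, mostly mitochondrial, with the electron transfer flavoprotein and enzymes that cleave acyl-CoA or CoA, moved in both directions. Of 22 listed genes 20 were tested, and 11 rose and 4 fell with resveratrol (median 0.15), 10 and 5 with the combination (median 0.15). The largest rises with the combination were NUDT7, a CoA diphosphatase of peroxisomes and not an enzyme of the mitochondrial spiral (0.88, from 7.65 ± 3.97 normalised counts), ACADSB, which acts on short branched chains (0.77), and ACAD10 (0.64). The largest falls were HSD17B10 (-0.28), the thioesterase ACOT9 (-0.27) and the ketothiolase ACAT1 (-0.24). Partners of ETFDH split: ETFB, the beta subunit of the flavoprotein, rose by 0.33 with resveratrol and 0.30 with the combination, and ETFA, the alpha subunit, fell by 0.13 and 0.16, a fall that was not called with library size alone (-0.04 and -0.08), nor was that of ACAD9 with the combination (-0.01). HADH, the dehydrogenase for shorter chains, fell by 0.17 with resveratrol (-0.09 and not called with library size alone) and was -0.07 with the combination, not called. The hydratase ECHS1 rose by 0.08 with resveratrol and was 0.04 with the combination, not called, and the thiolase ACAA2 rose by 0.42 with resveratrol and was 0.37, not called, with the combination.

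For the propionyl-CoA branch, all 6 listed genes were tested, with 2 higher and 1 lower with resveratrol and 3 higher and 1 lower with the combination (median -0.06 and -0.02). MMAB, which makes the cobalamin cofactor of methylmalonyl-CoA mutase, rose by 0.65 and 0.72. The mutase MMUT rose by 0.20 and the carboxylase subunit PCCB by 0.14 with the combination, while the cobalamin chaperone MMAA fell by 0.45 (edgeR adjusted p = 0.0579, and 0.125 with library size alone).

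Of the genes around malonyl-CoA, the inhibitor of CPT1A, both an enzyme that makes it and the enzyme that removes it rose. ACACB, the acetyl-CoA carboxylase at the mitochondrial surface that makes the malonyl-CoA which inhibits CPT1, rose by 0.71 with resveratrol and 0.87 with the combination, from 46.6 ± 7.74 normalised counts. MLYCD, the decarboxylase that removes malonyl-CoA, rose by 0.62 and 0.63 from 66.9 ± 5.84. ACACA, the cytosolic carboxylase of fatty acid synthesis, was 0.06 and -0.02 and was not called. The AMP-activated kinase subunit PRKAG2 fell by 0.34 and its upstream kinase STK11 by 0.25 with the combination. Of 10 listed genes 9 were tested, with 3 higher and 3 lower with resveratrol and 2 higher and 2 lower with the combination, which is near the shares over all tested genes.

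Transcriptional regulators of these genes changed in both directions as well. Of 16 listed, 15 were tested, and 9 rose and 5 fell with resveratrol, 8 and 6 with the combination (median 0.15 and 0.18). With library size alone as the scaling, the falls of NCOR1 (-0.04), PPARGC1B (-0.14) and RXRA (-0.05) with resveratrol and those of NCOR1 (-0.06) and NRIP1 (-0.10) with the combination were not called. The fatty acid receptor PPARA rose by 0.55 and 0.51, and PPARD by 0.35 and 0.60, which was higher with the combination than with resveratrol by 0.24 (edgeR adjusted p = 2.28e-04). LPIN1, a coactivator of PPARA as well as a phosphatidate phosphatase, rose by 0.54 and 0.62. With the combination the largest falls were PPARGC1B (-0.43), a coactivator of mitochondrial genes, NRF1 (-0.36) and RXRA (-0.28), the partner of the PPARs. PPARGC1A had 33 counts in 24 libraries and was not tested. Of 17 other genes known to respond to PPAR agonists, 8 were tested, and 5 rose and 2 fell with resveratrol, 4 and 2 with the combination. ANGPTL4, an inhibitor of lipoprotein lipase, rose by 0.98 and 1.29 from 19.8 ± 4.42 normalised counts, the lipid droplet protein PLIN2 by 0.55 and 0.35, TXNIP by 0.19 and 0.54, and the inositol monophosphatase IMPA2 by 0.38 with the combination. The fatty acid transporter CD36 fell by 0.80 and 1.02 and the fatty acid binding protein FABP5 by 0.11 and 0.34, and the first of the FABP5 values was not called with library size alone (-0.03).

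The other pyruvate dehydrogenase kinases were expressed, and PDK1 rose with EGCG, which called no member of the set. PDK1, a known hypoxia-inducible gene, had 151 ± 8.06 normalised counts in the control, 203 ± 8.22 with EGCG, 138 ± 8.55 for resveratrol and 171 ± 15.1 for both agents (SD, n = 6). It rose by 0.43 with EGCG (edgeR adjusted p = 2.09e-05) and by 0.18 with the combination (0.0160), and was -0.12 with resveratrol, not called. PDK2 rose by 0.39 with resveratrol and 0.33 with the combination, and PDK3 by 0.41 with resveratrol and was 0.20, not called, with the combination. The pyruvate carrier subunits MPC2 (0.55) and MPC1 (0.42) rose with the combination, whereas the pyruvate dehydrogenase subunits DLAT (-0.37), PDHA1 (-0.31) and PDHX (-0.18) fell. In all 13 tested genes of this list, 7 rose and 4 fell for resveratrol, and 6 rose and 4 fell for both agents, and EGCG called 1 higher, PDK1. With library size alone as the scaling, the falls of PDHX (-0.09) and PDP1 (-0.03) with resveratrol and of DLD (-0.06) with the combination were not called.

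Peroxisomal beta-oxidation, which shortens very long and branched chains, was called higher for 9 of 12 genes and lower for 0 with resveratrol, and for 9 and 0 with the combination (median 0.29 and 0.26). With the combination the bifunctional enzyme EHHADH rose by 0.47 and DECR2, the peroxisomal counterpart of DECR1, by 0.47. Of the lipolysis genes, 5 of 6 were tested and 3 rose and 1 fell with the combination (2 and 1 with resveratrol). The triglyceride lipase PNPLA2 rose by 0.51 and 0.57 and its activator ABHD5 by 0.50 and 0.52, the monoglyceride lipase MGLL by 0.26 with the combination (0.09 and not called with resveratrol), and the droplet coat protein PLIN3 fell by 0.30 and 0.23. With EGCG alone none of the genes of the shuttle, beta-oxidation, propionyl-CoA, malonyl-CoA, regulator, peroxisome and lipolysis lists was called by edgeR, and of the PPAR-responsive list TXNIP rose (0.28) and FABP5 fell (-0.17).

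**Figure D5:**
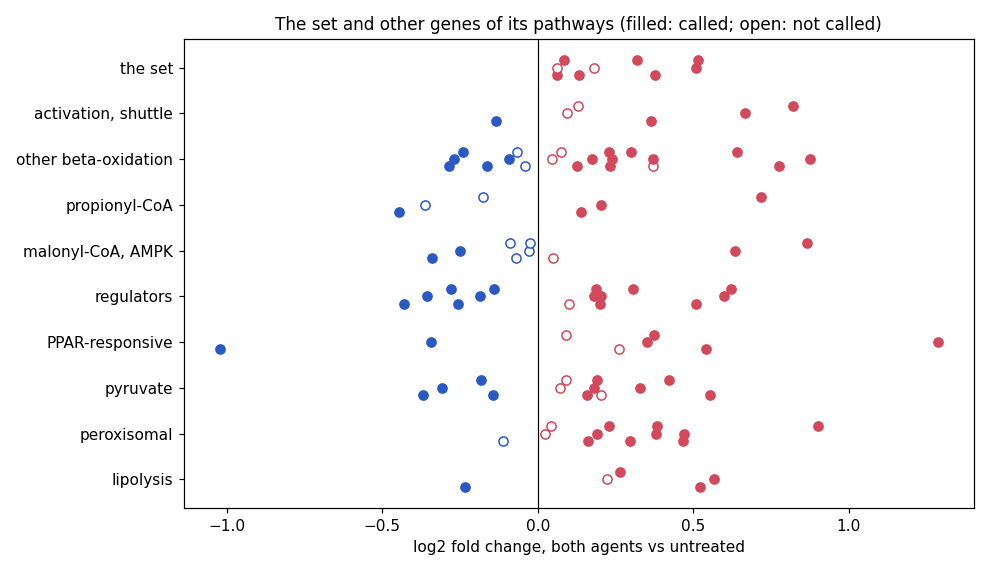
log2 fold change (x axis) of each tested gene of the set and of 9 lists of related genes (rows) with the combination against the untreated control, filled where called, with rises in red and falls in blue. All tested members lie above 0, the peroxisomal list has 9 filled points above 0 and 0 below, and the 8 other lists have filled points on both sides.

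Genes outside the lists whose levels followed those of a member most closely were sought by the root mean square difference in log2 CPM, each gene centred on its control mean, over the 24 libraries. For CPT2 they included WBP2 (difference 0.0747) and the lysosomal protease CTSB (0.0786). ACADVL was followed most closely by the tryptophan tRNA synthetase WARS1 (0.0610), the lysosomal protein progranulin GRN (0.0613) and the ferritin heavy chain pseudogene FTH1P2 (0.0659). Those for DECR1 were NEK9 (0.127), the desmosomal cadherin DSG3 (0.142) and ENTPD4 (0.145). These genes were chosen for their likeness from all tested genes in libraries that share depth and scaling.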

How the data were processed

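RNASeq of MDA686TU cells was analysed in 4 groups of 6 libraries. Per the labels and methods, the authors made libraries with the TruSeq stranded mRNA kit, and per the submitters' processing notes Trimmomatic 0.36, HISAT2 2.0.4, SAMtools 1.3.1 and DESeq2 1.20.0 were used, with GRCh38. The counting program, its strand setting and the handling of shared reads are not given in the sources used here. The authors deposited raw counts per gene, used here for all tests. The deposited normalised counts, a signal used for levels, were checked to equal raw counts divided by a size factor per library. The deposited FPKM values, used only to order genes per length, were checked to be in a constant ratio to them per gene.

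The 24 libraries entered 1 fit in edgeR 4.0.16 (R 4.3.3), with TMM, filterByExpr by group, no covariate, the quasi-likelihood test and Benjamini-Hochberg adjustment over 15476 genes. Standard errors follow from the fold change and its F statistic. Exact permutation tests used log2 CPM with a prior count of 2. Of 60617 genes, 60261 had a symbol and 33693 at least 1 count. Library totals of 7034872 to 11735574 leave counting error mainly in genes with few counts. The members and lists were chosen with earlier results of these data known. Named genes are the members, genes fixed by name, and up to 3 called genes with the largest rise and fall per list in the combination, with ACACA and overlapping genes added after their values were seen. A few genes that this rule names are not reported here. Alternatives were DESeq2 1.42.0, its size factors or library size alone in edgeR, other count filters (1 count, or 10 in every library), an adjusted p under 0.05, only the groups compared, the replicate number as a block, the sets of replicates 1 to 3 and 4 to 6 as a term or alone, and each library left out. On simulated data, the fits recovered the direction of the changed genes. The counts of no library were a copy of those of another of its group, a check that cannot tell technical replicates from separate cultures. Data from qPCR, protein and mice were not analysed here.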

Additional observations from a re-analysis of the deposited data

Results flagged for a closer look

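In the resveratrol group, replicate 3 had an ACADM normalised read count of 440.9, apart from the other 5 libraries at 389 to 406. Its gap to the nearest library, divided by the range of the group, was 0.672, above Dixon's 95% critical value for 6 libraries. It was the 1 value so marked among the groups of 6 values of the 9 tested members, by a rule by which chance marks about 1 group in 20. PDK4, with at most 1 count in a library, is left out of this statement. ACADM rose with resveratrol with each library left out in turn, by 0.23 to 0.29 on the log2 scale.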

How the results depend on the processing

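The number of members called was 0 with EGCG, 8 with resveratrol, 7 with the combination, 0 between the combination and resveratrol, 7 between the combination and EGCG and 0 for the interaction, and it was 0, 8, 7, 0, 7 and 0 with the replicate block and the same with the term for replicates 1 to 3 and 4 to 6. In replicates 4 to 6 alone it was 1 with EGCG (ETFDH) and 5 with resveratrol, with 3 libraries a group. Of the related lists with the combination, the propionyl-CoA list had 4 called genes, and 2 in replicates 1 to 3 alone, 2 in replicates 4 to 6 alone and 2 at an adjusted p under 0.05, and the pyruvate list had 10, and 6 in replicates 4 to 6 alone. Over all genes EGCG called 273, 370 with the replicate block, and 84 and 85 in these sets of replicates. The main fit did not pair libraries by number, and whether equal numbers were handled together is not given in the sources used here. After removal of group means, same-numbered libraries of different groups correlated by -0.0111 to 0.131 (median 0.0488). The median was 0.0276 for other numbers within a set of replicates and -0.0406 across the sets. Of 24 libraries 11 correlated best with their own number, so shared structure by number is not excluded. With each library left out, 6 to 9 members were called with resveratrol, 6 to 8 with the combination, 6 to 7 between the combination and EGCG, and 0 in the other comparisons. No called value changed direction under the alternatives run. The calls of CPT1A and HADHA with the combination, against the control and against EGCG, were lost when all 33693 genes with a count were tested, as was that of HADHA with resveratrol. The low counts of ACADS, ETFDH and DECR1 limit their precision, and PDK4 could not be tested.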
